A study of Mus musculus with 18 samples.

Results

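The regions described here are the start windows of microRNA genes in the mouse brain, 1 kb to either side of each annotated start. They were taken as all table entries whose gene name begins with Mir and a digit or with Mirlet7, with entries that share a window kept once. Entries on chromosome 12 from 110690000 to 111520000 (build mm9) were left out. This gave 1167 windows under 1109 names, out of 26065 distinct windows in all, and each of the 1167 spans 2000 bases. In 175 of them the window overlaps that of another gene, in 286 it overlaps another microRNA window, and overlapping windows share reads.

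Chromatin accessibility was measured by ATAC-seq, in which the transposase Tn5 cuts open DNA and leaves sequencing adapters in it, with 50000 nuclei per library. All mice were C57BL/6J of 2 to 3 months, and the tissue was the microdissected central amygdala (CeA) or the prefrontal cortex, called cortex here. SOM+ nuclei, so called for somatostatin, were sorted on a nuclear GFP (SOM H2B-GFP) from wild-type mice that were either controls or fear conditioned, with 2 libraries for each region and treatment, 1 labelled male and 1 female. Bulk nuclei were sorted on a DNA stain alone, from mice whose SOM+ cells carry a knockout (KO) of Erbb4 (3 libraries in each region, all labelled male) and from wild-type (WT) mice (2 per region, 1 labelled female and 1 male). Erbb4 is a receptor for neuregulins, and the knockout touches only the SOM+ cells among the nuclei of a bulk library. The genotype field gives the knockout for the bulk WT libraries as well, so WT was read from the sample titles. The sort, the mouse line and the preparation all differ between SOM+ and bulk libraries and cannot be told apart. The protocol speaks of technical replicates, so where libraries of a group come from the same mice the p values below may measure only the spread between preparations. In each SOM+ group the library labelled male had 880 to 1330 counts at Y-linked promoters and the other had 0. Those 2 libraries thus come from different mice, while the number of mice per library is not known.

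A microRNA is cut from a longer primary transcript into a short mature RNA, and bases 2 to 8 of that RNA, the seed, pair with target messages. Many microRNA genes lie in introns of protein-coding genes and are transcribed from the host's promoter. Others sit in clusters that are read as 1 transcript, and some mature microRNAs are encoded at several places in the genome. An annotated microRNA start is usually the 5′ end of the hairpin, so a window around it need not hold the promoter of the primary transcript. In the brain, miR-9, miR-124, miR-132, miR-137 and miR-7 are known from neurons, and the miR-17 clusters from dividing cells.

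The mature sequences of the microRNAs that the results turn on are given first, 5′ to 3′, from RefSeq (build GRCm38.p6), with the seed in capitals. Of the 1109 names, 959 had an entry in the RefSeq table. The pairs miR-132 and miR-212, miR-221 and miR-222, miR-181a and miR-181b, and miR-30c and miR-30e each share a seed. The 3 members shown of the miR-344 family have a different seed each.
miR-9-5p: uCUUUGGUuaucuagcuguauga
miR-132-3p: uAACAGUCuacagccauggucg
miR-212-3p: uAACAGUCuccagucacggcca
miR-30c-5p: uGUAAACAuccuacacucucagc
miR-30e-5p: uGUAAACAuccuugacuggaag
miR-181a-5p: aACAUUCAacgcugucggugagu
miR-181b-5p: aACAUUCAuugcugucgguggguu
let-7c-5p: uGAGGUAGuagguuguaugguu
miR-125b-5p: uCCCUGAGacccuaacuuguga
miR-137-3p: uUAUUGCUuaagaauacgcguag
miR-7a-5p: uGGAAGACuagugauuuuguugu
miR-221-3p: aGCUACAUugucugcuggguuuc
miR-222-3p: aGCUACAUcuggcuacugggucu
miR-344-3p: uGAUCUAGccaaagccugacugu
miR-344b-3p: cAUUUAGCcaaagccugacugu
miR-344d-3p: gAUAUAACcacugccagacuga
miR-17-5p: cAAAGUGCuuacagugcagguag
miR-206-3p: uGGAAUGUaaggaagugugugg
miR-802-5p: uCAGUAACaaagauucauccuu
miR-378d: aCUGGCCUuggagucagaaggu

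Before any difference is read, the libraries need a few remarks. The counts over all windows came to between 2648959 and 14668694 per library, and 3 counts, the most that a count of 0 allows, stand for 0.205 CPM in the deepest library and 1.13 CPM in the shallowest (counting error only). By reads at Y-linked promoters, 4 of the 10 bulk libraries went against their labelled sex: the second KO library of each region, labelled male, had 0 counts, and the first WT libraries, labelled female, had 285 in CeA and 683 in cortex. None of the 8 SOM+ libraries did. If the second KO and the first WT library of each region changed places, every labelled sex would match, so the genotype labels of these 4 libraries are in doubt too, and KO and WT below mean libraries so labelled. Counts of calls are also given without these 4, an alternative chosen after seeing the data that leaves 1 WT library per region, assumed to vary like the other groups. The third KO library of cortex stood apart from its group, with a chi-square per degree of freedom of 14.8 and 8.55 against the other two, where all other pairs within a group gave 3.3 to 6.06. The level of ribosomal protein windows, open in every cell, over that of olfactory receptor windows, closed in brain, was 63.0 ± 8.11 (SD, n = 4) in cortex SOM+, 28.6 ± 8.24 (n = 4) in CeA SOM+, 16.4 ± 3.46 (n = 5) in CeA bulk and 12.3 ± 2.24 (n = 5) in cortex bulk. Closed windows therefore read lower in SOM+ than in bulk libraries, and lower in cortex SOM+ than in CeA SOM+, and values for olfactory receptor windows are given beside the lists of near-closed microRNA windows. Promoters of GABAergic neuron markers were higher in SOM+ control than in bulk WT nuclei for 5 of 5 genes, all 7 glutamatergic markers were lower, and so were 4 of 5 astrocyte, 5 of 7 oligodendrocyte, 3 of 6 microglia and 2 of 6 vascular markers (1 vascular marker was higher). Of the 6 somatostatin neuron markers, 2 were higher (Lhx6 and Cort) and 1 was lower (Satb1), and Sst itself was not called (0.03 ± 0.23 on the log2 scale, edgeR adjusted p = 0.926). Summed, these 6 read 301 to 339 CPM in cortex SOM+ and 132 to 172 CPM in cortex bulk, but 89.2 to 107 CPM in CeA SOM+ and 98.6 to 137 CPM in CeA bulk. Their sum was thus higher in SOM+ than in bulk nuclei of cortex and not of CeA, and 5 of the 6 were lower in CeA SOM+ than in cortex SOM+ (edgeR). No marker of these lists was at 0 in every library. Erbb4's own start window (chromosome 1, 69153634 to 69155633) read 28.8 to 39.6 CPM in KO and 35.2 to 37.5 CPM in WT of CeA, and 26.0 to 41.4 against 33.6 to 45.8 CPM in cortex. The deletion need not remove that window, so it does not check the genotype.

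Most microRNA windows were barely open. Levels are in CPM, a count divided by the TMM-scaled library total and multiplied by 1e+06, and the median over the 1167 windows was 8.29 CPM, against 22.2 CPM in the 24898 windows of other genes, 3.06 CPM in 1120 olfactory receptor windows and 62.6 CPM in 76 ribosomal protein windows. The median of the microRNA windows ran from 6.25 to 10.4 CPM over the 18 libraries. A level over 50 CPM was reached by 63 of the microRNA windows (5.4%) and by 31.1% of the others. A single microRNA window had no count in any library.

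The level varied with where a window lies. The 175 windows that overlap another gene's window had a median of 15.3 CPM and 25.1% of them passed 50 CPM. The median was 7.53 CPM in the 346 windows with another start under 10 kb away, 8.52 CPM in the 397 with one at 10 to 50 kb, and 6.62 CPM in the 249 farther off. Among windows free of overlap, 434 in a gene of the same strand had a median of 9.14 CPM, 63 in a gene of the opposite strand 7.55 CPM and 254 outside genes 7.37 CPM. The highest levels belonged to windows at the starts of protein-coding genes. Mir1938 averaged 287 CPM beside Ifrd1 and Gm7008, Mir5627 218 CPM beside Dnajb9, Mir8098 214 CPM beside Wdfy2 and Mir1893 210 CPM beside Epc1.

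**Figure D1:**
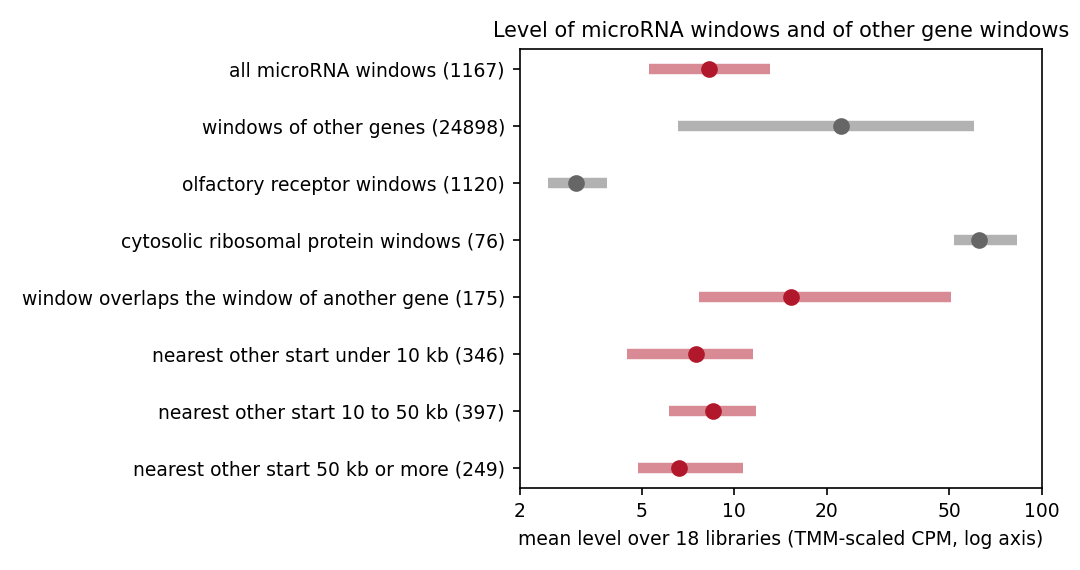
Mean level over 18 libraries (TMM-scaled CPM, log axis) of the microRNA windows, by where they lie, and of windows of other genes, with a point at the median and a bar from the first to the third quartile. The microRNA windows (median 8.29 CPM) sit between the olfactory receptor windows (3.06 CPM) and the ribosomal protein windows (62.6 CPM).

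The most open window free of overlap was that of Mir22hg, the host transcript of miR-22, at 169 CPM on average (chromosome 11, 75274041 to 75276040, mm9). Mir155hg, the host transcript of miR-155, an immune cell microRNA, averaged 6.94 CPM (chromosome 16, 84712268 to 84714267). Their RefSeq promoters, from 250 bases before the start to 50 after it on GRCm38.p6, are shown to set an open start beside a near-closed one, with each CG, the dinucleotide that marks CpG-rich promoters, in capitals. CG reads the same on both strands. The Mir22hg promoter, chr11:75461289-75461588 on the plus strand, holds 12 of them and the Mir155hg promoter, chr16:84712773-84713072 on the plus strand, holds 0. Over 32851 mouse promoters of the same length the median is 7, and 35.8% have an observed over expected CG ratio of at least 0.6, where Mir22hg has 0.541.
Mir22hg: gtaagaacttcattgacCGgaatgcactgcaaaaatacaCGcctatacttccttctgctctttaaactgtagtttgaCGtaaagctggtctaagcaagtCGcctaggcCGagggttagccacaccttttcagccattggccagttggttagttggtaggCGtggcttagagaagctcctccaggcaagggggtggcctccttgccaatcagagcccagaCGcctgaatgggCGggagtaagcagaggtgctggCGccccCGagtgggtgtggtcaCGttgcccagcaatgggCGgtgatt
Mir155hg: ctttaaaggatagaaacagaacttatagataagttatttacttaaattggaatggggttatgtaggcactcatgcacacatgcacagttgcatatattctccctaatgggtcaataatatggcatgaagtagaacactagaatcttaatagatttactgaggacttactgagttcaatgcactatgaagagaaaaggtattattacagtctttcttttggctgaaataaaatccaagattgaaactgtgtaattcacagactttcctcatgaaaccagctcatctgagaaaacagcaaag

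SOM+ nuclei of control mice were set against bulk nuclei of WT mice, 4 libraries each. Averaged over the regions, Mir30c-1, Mir132 with Mir212, Mir22hg and Mir124a-3 were more open in SOM+ nuclei, by 1.29 to 2.59 on the log2 scale. Mir206, Mir802, Mir146 and most windows of the miR-17 clusters were less open. Averaged over the regions, 431 of 1122 windows tested were called at an adjusted p under 0.05 (edgeR's quasi-likelihood test, Benjamini-Hochberg over all windows), 198 higher and 233 lower in SOM+. That is 38.4%, where 61.1% of all windows tested were called (30.6% higher and 30.6% lower). The median difference was -0.03 on the log2 scale for the microRNA windows and -0.07 for all windows. The split turned with the scaling: with plain library totals 121 were higher and 289 lower, and with cyclic loess 323 were higher and 133 lower. Over all windows these splits were 6051 against 9472 and 7383 against 7006. Within CeA 57 were higher and 59 lower (10.3% in all), where 13.7% of all windows were higher and 9.58% lower (23.2%). The CeA count fell to 37 without CeA bulk WT 1, to 51 without either CeA SOM+ control library and to 62 without CeA bulk WT 2. Within cortex 252 were higher and 230 lower (43.0%), where 31.5% of all windows were higher and 30.6% lower (62.1%). In both regions the same scalings moved the split, to 28 against 77 and 101 against 45 in CeA and to 156 against 258 and 299 against 155 in cortex. Over all windows they gave 2364 against 3447 and 2726 against 2846 in CeA. In cortex all windows gave 6525 against 9136 and 7484 against 7187. Without the 4 bulk libraries of doubtful label, 268 windows were called averaged over the regions, 23 in CeA and 333 in cortex. The share of all windows called with libraries left out is not given here. Whether microRNA windows lost more or fewer calls than other windows can thus not be read from these counts.

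The lower share of calls was found in windows under 30 CPM. Among windows of 30 CPM or more, 73.9% of 111 microRNA windows and 74.7% of other windows were called. From 10 to 30 CPM the shares were 46.4% and 62.2%, and under 10 CPM 28.8% and 45.3%. The low windows of other genes leaned further down in SOM+, with a median of -0.67 against -0.23 for the microRNA windows. Olfactory receptor windows, which are closed, were lower in 667 of 1116 cases with a median of -1.22.

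Mir30c-1 encodes miR-30c from an intron of Nfyc, a subunit of the CCAAT-binding factor NF-Y (chromosome 4, 120441228 to 120443227). It lies 56119 bases from the host's most open start window. The Mir30c-1 window read 69.2 and 48.5 CPM in CeA SOM+ control, 72.8 and 80.3 in cortex SOM+ control, 12.3 and 15.9 in CeA bulk WT and 7.9 and 10.1 CPM in cortex bulk WT. Every SOM+ library lay above every bulk library, and the difference was 2.59 ± 0.18 (SE, log2; edgeR adjusted p = 4.13e-13). Mir30e, in the same host with the same seed, rose by 0.99 ± 0.30 (edgeR adjusted p = 0.00497), a call lost with library totals or without 1 of 2 libraries (CeA SOM+ control 1, cortex bulk WT 2). The host's own window also rose by 0.99.

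Mir132 and Mir212 lie side by side on chromosome 11 (74986184 to 74988183 for Mir132) and are known as microRNAs that neuronal activity induces through CREB. Mir132 read 145 and 139 CPM in CeA SOM+ control, 222 and 161 in cortex SOM+ control, 64.8 and 66.6 in CeA bulk WT and 36.4 and 40.1 CPM in cortex bulk WT. The groups did not overlap, and bulk nuclei of cortex were lowest. The difference was 1.71 ± 0.15 (edgeR adjusted p = 8.83e-12), and 1.72 ± 0.15 for Mir212, whose window shares most of its bases. It was larger in cortex (2.31 ± 0.21) than in CeA (1.11 ± 0.21), and the interaction of -1.21 ± 0.29 passed the test (edgeR adjusted p = 0.00246), though not without the 4 bulk libraries of doubtful label.

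Mir22hg read 196 and 201 CPM in CeA SOM+ control, 307 and 343 in cortex SOM+ control, 110 and 96.8 in CeA bulk WT and 83.2 and 77 CPM in cortex bulk WT. Again no SOM+ library fell to a bulk level, and the difference was 1.48 ± 0.15 (edgeR adjusted p = 1.06e-10). miR-124, the most abundant neuronal microRNA, has 3 loci. Mir124a-3 rose by 1.29 ± 0.15 (150 ± 27.1 against 61.0 ± 9.32 CPM, SD, n = 4 each), and Mir124a-1 by 0.72 ± 0.15 (75.6 ± 15.7 against 45.7 ± 9.23 CPM), the latter not called without the 4 bulk libraries of doubtful label. Mir124a-2, at 51.5 ± 27.8 against 53.8 ± 10.4 CPM, was not called on average (-0.18 ± 0.16, edgeR adjusted p = 0.331). By region it was lower in SOM+ nuclei of cortex (-0.77 ± 0.22) and not called in CeA (0.41 ± 0.23). Its interaction of 1.18 ± 0.32 passed the test (edgeR adjusted p = 0.00561).

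3 of the strongest rises lay at promoters of other genes, whose reads they share. Mir7668, in the start window of Zfp27, was at 129 ± 20.6 CPM in SOM+ control and 32.1 ± 7.09 in bulk WT (2.01 ± 0.16). Mir423, at Nsrp1, was at 72.9 ± 26.7 and 20.8 ± 6.62 CPM (1.78 ± 0.16). Mir695, at Pigu, differed by 1.59 ± 0.15. Which of the overlapping genes the reads belong to was not tested.

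Of the windows that were lower, Mir206 holds a microRNA of skeletal muscle (chromosome 1, 20668091 to 20670090). It read 3.96 and 2.96 CPM in CeA SOM+ control, 2.05 and 2.24 in cortex SOM+ control, 11.5 and 8.62 in CeA bulk WT and 13.4 and 16 CPM in cortex bulk WT. All SOM+ libraries lay below all bulk libraries, by -2.13 ± 0.28 (edgeR adjusted p = 4.19e-08). Mir802, a microRNA of liver and pancreas, read 4.23 ± 0.576 CPM in SOM+ control and 20.7 ± 6.71 CPM in bulk WT (-2.26 ± 0.25, edgeR adjusted p = 8.37e-10), and Mir6381 fell further, from 12.1 ± 2.11 to 2.27 ± 1.42 CPM (-2.62 ± 0.30). Olfactory receptor windows had a median of 2.38 CPM in CeA and 1.27 CPM in cortex SOM+ control, so these microRNA windows were close to closed there. In bulk tissue, fewer cells with an open window and a less open window in each cell cannot be told apart.

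**Figure D2:**
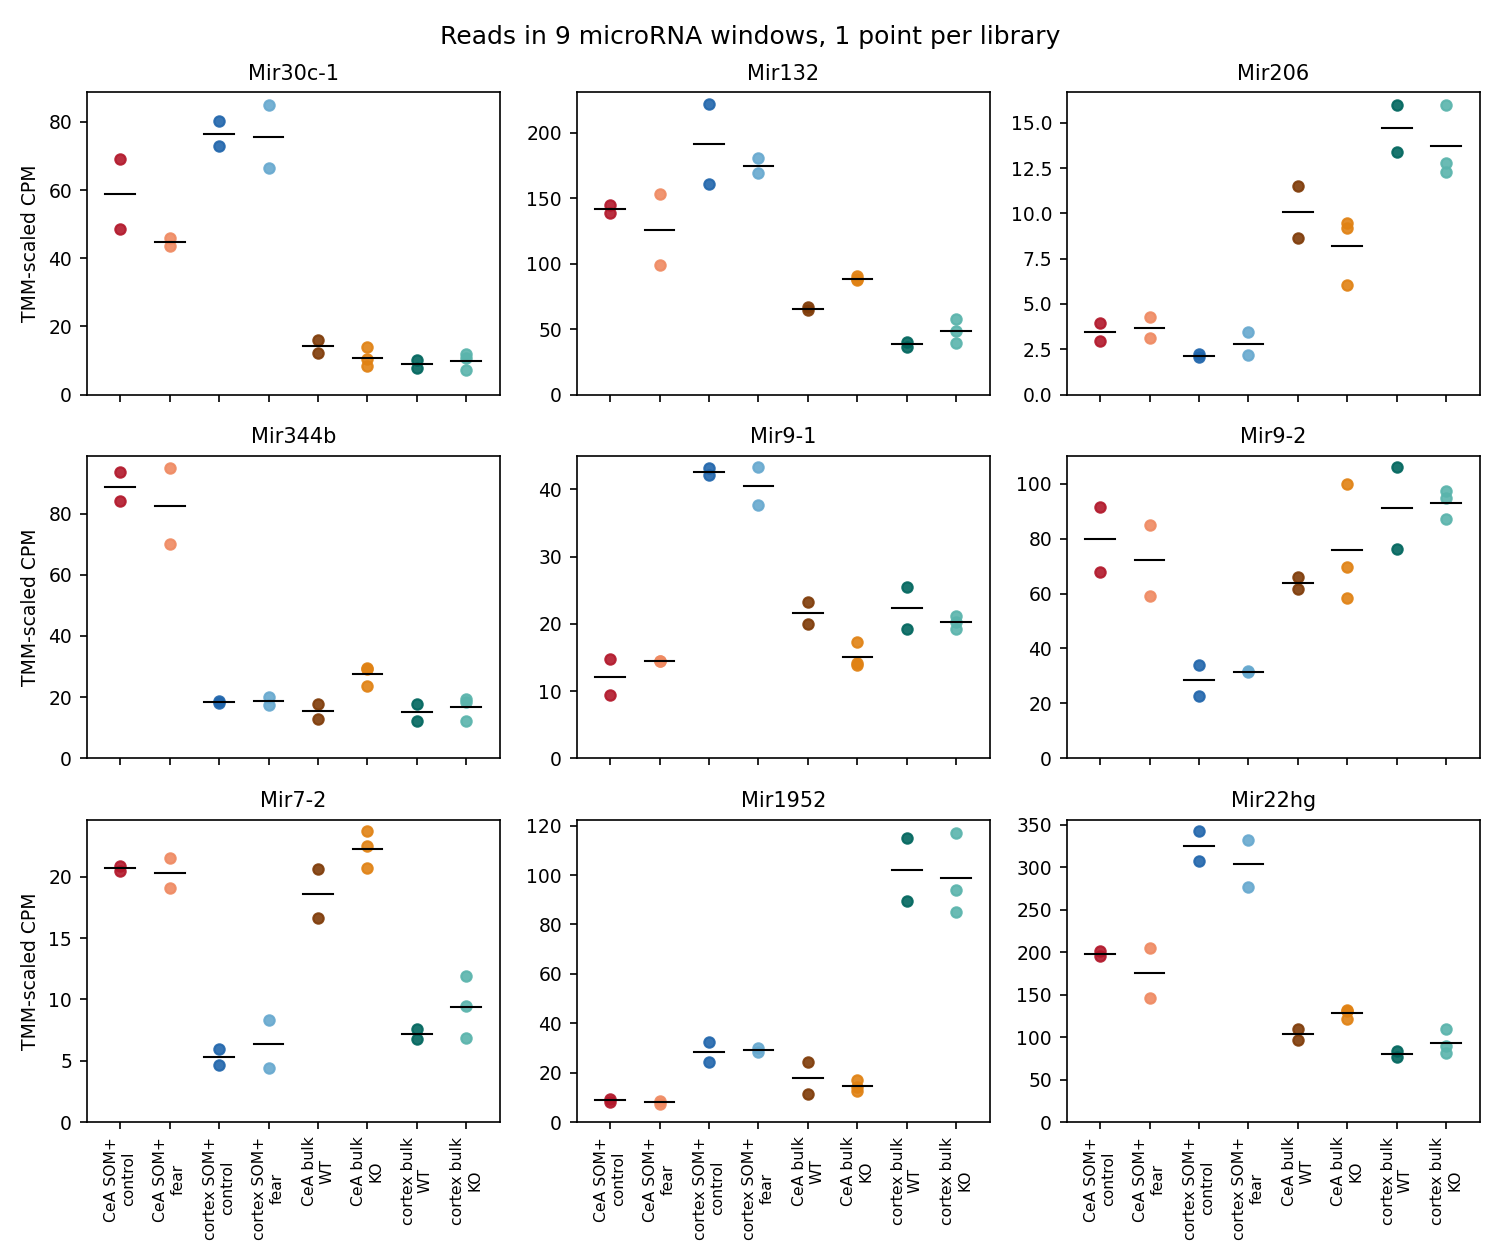
Level of 9 microRNA windows in every library (TMM-scaled CPM, linear axes from 0), 1 point per library and a line at each group's mean, over the 8 groups. Mir30c-1 stands between 43.7 and 84.9 CPM in the SOM+ libraries and between 7.23 and 15.9 CPM in the bulk libraries, and Mir206 between 2.05 and 4.27 against 6.03 and 16.

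The microRNA lists below were chosen with earlier results of these data known, and their counts are descriptions. Over all windows 30.6% were called higher and 30.6% lower in this comparison, and most lists are too short to set against those shares. Of 25 neuronal microRNA windows tested, 5 were higher and 4 lower in SOM+ control than in bulk WT, with a median of 0.03. Mir132, Mir212, Mir124a-1 and Mir124a-3 were among the 5. Of the windows in the miR-17 clusters, 12 of 15 were lower and 0 higher (median -1.43), beside a median of -1.22 and 59.8% lower for olfactory receptor windows. Mir17, the first member of the cluster on chromosome 14, read 18.1 ± 6.0 CPM in bulk WT and 7.03 ± 3.9 in SOM+ control (-1.43 ± 0.25), and these windows overlap one another. By region Mir17 differed by -2.59 ± 0.35 in cortex and by -0.28 ± 0.35 in CeA, the latter not called. Its interaction was called (2.31 ± 0.49, edgeR adjusted p = 0.00066). Mir106b, in another of these clusters, was not called on average (0.04 ± 0.23) and was higher in SOM+ nuclei of cortex (0.86 ± 0.32). With library totals 12 windows of this list were lower and with cyclic loess 10 (median -0.80). The sensory cluster, Mir96, Mir182 and Mir183, was higher in 3 of 3 windows, by 0.69 to 0.73, under TMM and cyclic loess, and in 0 of 3 with library totals, and Mir96 and Mir183 were not called without the 4 bulk libraries of doubtful label.

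The counts of the next lists also stand beside 30.6% higher and 30.6% lower over all windows. Of the microRNAs of microglia and blood, 1 of 12 windows was higher and 3 were lower. The 3 were Mir146 (-1.90 ± 0.29), Mir155 (-1.52 ± 0.29) and Mir223 (-1.11 ± 0.43), the first a damper of innate immune signalling and the last a myeloid microRNA. With cyclic loess the list turned to 5 higher and 2 lower. Mir223 was not called with cyclic loess, without the 4 bulk libraries of doubtful label, or without any 1 of CeA SOM+ control 2, cortex SOM+ control 1, CeA bulk WT 1 and cortex bulk WT 2. Mir142, a microRNA of blood cells, was at 7.26 ± 1.41 CPM in SOM+ control and 8.67 ± 3.91 in bulk WT (-0.15 ± 0.27, edgeR adjusted p = 0.652). Of the oligodendrocyte microRNAs, 2 of 5 windows were higher under TMM and none with cyclic loess. Mir219a-1, in the start window of Ring1, was 1 of the 2 (0.68 ± 0.16), while 5 of 7 protein-coding oligodendrocyte markers were lower. Hox cluster microRNAs were lower in 3 of 6 windows and vascular ones in 3 of 5, in both cases in 0 with cyclic loess. Of the miR-30 windows 3 of 7 were higher and 1 lower, of the let-7 windows 1 of 12 was higher and 2 lower, of the miR-29 windows 1 of 4 was higher, of the muscle list 2 of 11 were higher and 3 lower, and of the epithelial, liver and pancreas list 1 of 17 was higher and 4 lower. Of the embryonic stem cell microRNAs 0 of 14 were called. The large family repeated in an intron of Sfmbt2 was lower in 7 of 81 windows and higher in 0 (median -0.36), but higher in 9 and lower in 2 with cyclic loess.

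The next comparison asked where CeA and cortex differ within SOM+ nuclei, with control and fear libraries of each region together, 4 against 4. These SOM+ control libraries are also part of the comparison above. The miR-344 cluster, Mir9-2, Mir137, Mir125b-2, Mir7-2 and Mir221 with Mir222 were more open in CeA, and Mir9-1, Mir7228, Mir762, Mir486 and Mir1952 in cortex. In all, 318 of 1121 windows were higher in CeA and 156 lower, which is 42.3%, where 48.3% of all windows tested were called (21.1% higher and 27.1% lower). The median was 0.24 for the microRNA windows and 0.04 for all windows. Low windows made up most of the rises: under 10 CPM 31.2% were higher and 2.94% lower, and at 30 CPM or more 23.4% were higher and 45.0% lower. Windows of other genes had a like pattern, with 26.4% higher and 2.92% lower under 10 CPM. At 30 CPM or more 16.9% of them were higher and 43.7% lower. Olfactory receptor windows moved in the same sense, 315 of 1104 higher and 3 lower, with a median of 0.88. With library totals the split of the microRNA windows was 417 against 103, and with cyclic loess 188 against 145. Over all windows it was 7911 against 4943 and 5268 against 5299.

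Mir344b belongs to a cluster on chromosome 7 (68934468 to 68936467 for this window) and stood out by level. It read 93.7 and 84 CPM in CeA SOM+ control, 94.8 and 70 after fear conditioning, 18.2 and 18.7 in cortex SOM+ control and 17.3 and 20 CPM in cortex after fear conditioning. All CeA libraries were over 3 times as high as any cortex library, and the difference was 2.26 ± 0.15 (edgeR adjusted p = 7.18e-46). The other cluster windows also rose, by 1.83 ± 0.19 for Mir344d-1, 1.28 ± 0.15 for Mir344, 1.22 ± 0.15 for Mir344-2 and 1.03 ± 0.15 for Mir344c. In bulk nuclei the same 5 windows differed between the regions by -0.02 to 0.38, and none was called.

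Mir221 and Mir222, an overlapping pair on the X chromosome (18722515 to 18724514 for Mir221) known for repressing cell cycle inhibitors, showed the steepest rise. Mir221 read 8.55 and 8.08 CPM in CeA SOM+ control, 7.34 and 6.9 after fear conditioning, 1.08 and 0.709 in cortex SOM+ control and 1.01 and 0.74 CPM in cortex after fear conditioning. The groups lay far apart, and the cortex libraries read below the median of olfactory receptor windows there (1.27 CPM in control and 1.36 CPM after fear conditioning). The difference was 3.13 ± 0.40 (edgeR adjusted p = 2.91e-13), and 3.17 ± 0.36 for Mir222.

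Mir137, a neuronal microRNA studied in schizophrenia, read 39.9 ± 5.15 CPM in CeA SOM+ and 15.6 ± 4.87 in cortex SOM+ (SD, n = 4 each; 1.40 ± 0.16, edgeR adjusted p = 2.97e-16). Mir125b-2, in the cluster with Mir99a and Mirlet7c-1 on chromosome 16, read 27.5 ± 5.76 and 7.4 ± 1.49 CPM (1.92 ± 0.19). The cluster's host transcript Mir99ahg was higher too (1.12 ± 0.20), as were Mir99a (1.29 ± 0.27) and Mirlet7c-1 (1.25 ± 0.29). The windows of Mir99a and Mirlet7c-1 overlap and share reads. In bulk nuclei Mir99a (-0.73 ± 0.19), Mirlet7c-1 (-0.66 ± 0.21) and Mir99ahg (-0.53 ± 0.16) were called lower in CeA. Mir125b-2 was not called there (-0.19 ± 0.16).

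In the other direction, Mir7228 (chromosome 5, 135046946 to 135048945) read 13, 15.1, 18 and 10.2 CPM in the CeA SOM+ libraries and 66.5, 74.2, 60 and 74.9 CPM in those of cortex. The lowest cortex library was over 3 times the highest CeA library, and the difference was -2.22 ± 0.16 (edgeR adjusted p = 1.54e-39). Mir762, in the start window of Bcl7c, was at 23.5 ± 4.74 and 85.6 ± 7.3 CPM (-1.80 ± 0.16), Mir1936 at 12.8 ± 2.27 and 50.1 ± 5.56 (-1.94 ± 0.17), and Mir486, an erythroid and muscle microRNA, at 9.24 ± 2.41 and 33.6 ± 3.75 (-1.84 ± 0.19). In bulk nuclei these 4 windows differed between the regions by -0.03 to 0.45, and none passed the test.

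The list counts of this comparison stand beside 21.1% higher and 27.1% lower over all windows. Of the lists, the neuronal one split, with 7 of 25 windows higher in CeA SOM+ and 8 lower, or 12 and 3 with library totals and 8 and 4 with cyclic loess. Mir132 (-0.40 ± 0.16), Mir212, Mir124a-1 and Mir124a-3 were lower in CeA, calls that end with library totals and with cyclic loess, while Mir124a-2 was higher by 1.30 ± 0.15 (75.5 ± 20.7 against 31.9 ± 2.07 CPM). Oligodendrocyte windows were lower in 2 of 5, among them Mir338 (11 ± 1.0 against 23.4 ± 2.65 CPM, -1.04 ± 0.19), though library totals and cyclic loess each gave 2 higher and 1 lower. The miR-17 clusters were higher in 12 of 15 and lower in 3, the let-7 windows higher in 5 of 12 and lower in 3, the miR-29 windows higher in 2 of 4 and the miR-30 windows lower in 2 of 7. Of the muscle list 4 of 11 were higher, and of the epithelial, liver and pancreas list 6 of 17 were higher and 1 lower. With cyclic loess the miR-17 clusters came to 6 higher and 3 lower (median 0.54, against 1.35), the muscle list to 1 higher, the last list to 2 higher and 1 lower and the let-7 windows to 4 and 3. The 2 miR-30 calls came to 1 with cyclic loess and 0 with library totals. Under TMM no window of the sensory, vascular, Hox or microglia and blood lists was called, while library totals called 2 Hox windows and 1 vascular window higher and cyclic loess 2 windows of the microglia and blood list lower. The embryonic stem cell windows were higher in 11 of 14 and the Sfmbt2 family in 52 of 81, with medians of 1.02 and 1.06. With cyclic loess these counts came to 0 and 11, and the medians to 0.39 and 0.40, beside a median of 0.88 for olfactory receptor windows under TMM.

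In bulk nuclei CeA and cortex were compared over 5 libraries each, KO and WT together. Mir7-2, Mir378d, Mir3108, Mir149 and Mir92b were higher in CeA, and Mir1952, Mir6343, Mir6240 and Mir491 in cortex. Of 1122 windows, 67 were higher in CeA and 51 lower, or 10.5%, where 16.9% of all windows tested were called (6.9% higher and 9.98% lower). The count hung on the WT libraries: it fell to 24 without cortex bulk WT 2 and to 25 without CeA bulk WT 2, to 46 and 53 without cortex bulk WT 1 and CeA bulk WT 1, and to 73 and 77 without CeA bulk KO 2 and 3, and rose to 195 without cortex bulk KO 1. It was 28 without the 4 bulk libraries of doubtful label, and the share of all windows called with these libraries left out is not given here. With library totals 93 microRNA windows were higher and 32 lower, and with cyclic loess 70 and 70. Over all windows the splits were 2573 against 1962 and 2432 against 2769. Olfactory receptor windows were higher in 12 of 1113 cases and lower in 32.

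Mir1952 (chromosome 2, 138644665 to 138646664) read 11.3 and 24.2 CPM in CeA bulk WT, 12.5, 14.3 and 16.9 in CeA bulk KO, 89.4 and 115 in cortex bulk WT and 85.2, 93.8 and 117 CPM in cortex bulk KO. Every cortex library was over 3 times as high as every CeA library, in both genotypes, with a difference of -2.67 ± 0.15 (edgeR adjusted p = 1.35e-09). SOM+ nuclei showed the same sense at lower levels, 8.4 ± 0.86 CPM in CeA and 28.8 ± 3.34 in cortex (-1.75 ± 0.19). Mir7-2 encodes miR-7a, a microRNA of neuroendocrine cells and neurons. It read 20.8 ± 2.69 CPM in CeA bulk and 8.5 ± 2.18 in cortex bulk (SD, n = 5 each; 1.30 ± 0.20, edgeR adjusted p = 0.000147), and 20.5 ± 1.03 against 5.83 ± 1.8 CPM in SOM+ nuclei (1.85 ± 0.21). Mir378d (1.82 ± 0.19 in bulk, 2.30 ± 0.24 in SOM+) and Mir3108 (1.31 ± 0.21 and 2.86 ± 0.23) were also higher in CeA in both sorts.

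Some windows called in bulk nuclei had other values in SOM+. That contrast was tested only through the interaction described further on, which uses SOM+ control and bulk WT libraries. It was called (edgeR) for Mir491 (1.84 ± 0.39), Mir6343 (1.49 ± 0.54), Mir6240 (1.21 ± 0.40), Mir132 (-1.21 ± 0.29), Mir22hg (-1.08 ± 0.29), Mir124a-1 (-0.88 ± 0.30) and Mir338 (-1.91 ± 0.42). It was not called for Mir219a-1 (-0.10 ± 0.32). Except for Mir132, how these hold with libraries left out is not given here. Mir6343 read 7.58 ± 3.39 CPM in CeA bulk and 33.1 ± 5.24 in cortex bulk (-2.09 ± 0.20), while in SOM+ nuclei it was at 4.08 ± 2.33 and 4.03 ± 1.07 CPM (0.01 ± 0.37). Mir6240 fell by 1.70 in bulk (14.0 ± 4.68 against 46.1 ± 5.81 CPM) and differed by 0.05 ± 0.18 in SOM+. Mir491, in an intron of Focad, was lower in CeA bulk by -1.48 ± 0.18 but higher in CeA SOM+ by 0.49 ± 0.19, the latter call lost by DESeq2 and without any 1 of CeA SOM+ control 1, CeA SOM+ fear 1, cortex SOM+ control 2 and cortex SOM+ fear 2. Mir132 and Mir22hg were higher in CeA bulk (0.84 ± 0.13 and 0.43 ± 0.13), the second lost without any 1 of 8 of the 10 libraries, all but cortex bulk KO 1 and 3, and both lost without the 4 libraries of doubtful label. Over all windows 6.9% were higher and 9.98% lower in CeA bulk. Of the neuronal list 4 of 25 were higher and 1 lower in CeA bulk, of the oligodendrocyte list 3 of 5 were higher, and of the miR-17 clusters 3 of 15 were lower. Among these, Mir124a-1 (0.55 ± 0.14), Mir219a-1 (0.61 ± 0.16) and Mir338 (0.62 ± 0.21) were not called without any 1 of the 4 WT libraries or without the 4 of doubtful label. The call of Mir338 also ended with the replicate number as a block, with cyclic loess, at a minimum count of 30, with sex read from Y-linked promoters and without CeA bulk KO 2 or 3 or cortex bulk KO 2.

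Across windows, the region difference in SOM+ nuclei was nearly uncorrelated with that in bulk nuclei. Pearson's r was 0.05 over 1121 microRNA windows and 0.01 over 25101 windows, as a description over windows measured in the same libraries. Called in both sorts were 67 windows, 14.1% of the SOM+ calls and 56.8% of the bulk calls. Of these, 33 moved the same way, 20 higher and 13 lower in CeA, and 34 moved opposite ways. Windows that share reads, such as Mir132 and Mir212, were counted singly. The same counts were not made over all windows, so they describe these windows and cannot be set against a background. The region difference had a median of 0.21 in bulk.

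**Figure D3:**
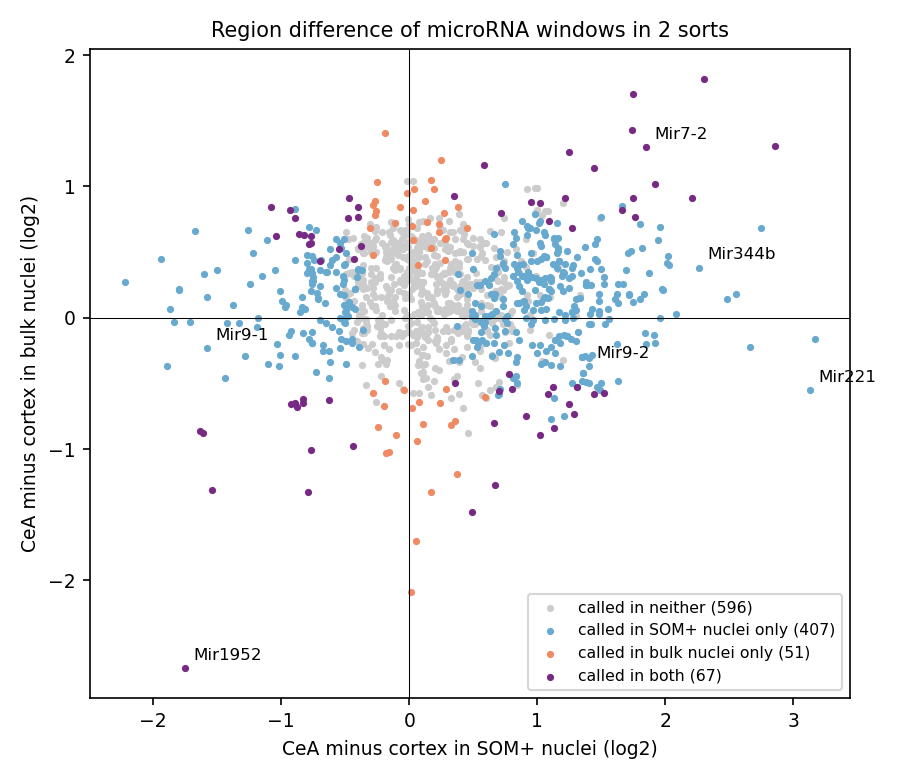
Difference between CeA and cortex (log2, CeA minus cortex) of each of 1121 microRNA windows, in SOM+ nuclei on the horizontal axis and in bulk nuclei on the vertical axis, coloured by which were called. Of these, 596 were called in neither, 407 in SOM+ alone, 51 in bulk alone and 67 in both, and the cloud shows no slope (r = 0.05).

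Whether the SOM+ against bulk difference itself depended on the region was tested as an interaction between SOM+ control and bulk WT libraries, which these comparisons share. It was called in 167 of 1122 windows, 65 higher and 102 lower in CeA, or 14.9%, where 24.7% of all windows tested were called (9.46% higher and 15.2% lower). Library totals gave 70 and 72 and cyclic loess 90 and 87, where all windows gave 3147 and 3202 and 3624 and 3108. The count was 108 without CeA bulk WT 1, 108 without cortex bulk WT 2 and 79 without the 4 bulk libraries of doubtful label. Shares over all windows with these libraries left out are not given here. Mir221 had 4.32 ± 0.75, from a SOM+ minus bulk difference of 1.55 ± 0.51 in CeA and -2.77 ± 0.55 in cortex, the former not called with library totals or without CeA SOM+ control 1, CeA SOM+ control 2 or CeA bulk WT 2. Mir344b had 2.23 ± 0.35, higher in SOM+ by 2.51 ± 0.25 in CeA and by 0.28 ± 0.25 in cortex, the latter not called. Mir137, Mir9-2 and Mir125b-2 had 1.96 ± 0.34, 1.99 ± 0.30 and 2.26 ± 0.39, each lower in SOM+ than in bulk in cortex (-1.49 ± 0.24, -1.68 ± 0.22 and -2.0 ± 0.29) and not called in CeA (0.47, 0.30 and 0.26). Mir7228 had -2.73 ± 0.37, with -0.10 ± 0.27 in CeA and 2.64 ± 0.25 in cortex.

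Several mature microRNAs are encoded at more than 1 place, and their loci did not always move together. Among the members, 31 mature sequences had 2 or more loci (63 loci in all). Between CeA and cortex in SOM+ nuclei, all loci were called in 1 direction for 7 sequences, some for 13 and none for 9, while 2 sequences had loci called in opposite directions. In bulk nuclei 8 had some loci called, 23 none, and 0 had loci in opposite directions. In SOM+ against bulk, 8 had all loci called in 1 direction, 11 some, 10 none and 2 opposite, the latter miR-181a and miR-181b, whose windows overlap. In the interaction 1 sequence had loci called in opposite directions, 1 had all loci called, 10 some and 19 none. The sequences are not separate cases. The miR-199a loci were counted under more than 1 sequence, and the windows of Mir19b-1 and Mir92-1 overlap. No share over other windows was computed to set beside these counts.

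miR-9, whose mature sequence given above is the same from its 3 loci, was the clearest case. Mir9-2 (chromosome 13, 83877419 to 83879418) read 91.6, 67.9, 85.1 and 59.2 CPM in the CeA SOM+ libraries and 33.9, 22.8, 31.4 and 31.7 CPM in those of cortex. Mir9-1 (chromosome 3, 88018520 to 88020519) read 14.8, 9.43, 14.5 and 14.5 CPM in CeA and 42.2, 43.1, 37.6 and 43.3 CPM in cortex. The first was higher in every CeA library and the second in every cortex library, by 1.40 ± 0.15 (edgeR adjusted p = 4.33e-19) and -1.58 ± 0.17 (edgeR adjusted p = 8.38e-19). Mir9-3 lay between, at 34.2 ± 2.9 and 44.8 ± 4.67 CPM (-0.34 ± 0.15, edgeR adjusted p = 0.0521). In bulk nuclei none of the 3 was called between the regions (-0.23, -0.37 and 0.16). The other opposite case was let-7c, with Mirlet7c-1 higher in CeA (1.25 ± 0.29) and Mirlet7c-2 lower (-0.76 ± 0.20).

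miR-181a and miR-181b are made from a pair of loci each, on chromosomes 1 and 2. Mir181a-1 read 19.7 and 13.7 CPM in CeA SOM+ control, 12.6 and 10.9 in cortex SOM+ control, 25.6 and 32.5 in CeA bulk WT and 32.9 and 39.2 CPM in cortex bulk WT. Mir181a-2 read 16.3 and 10.8, 11.3 and 15.5, 8.05 and 5.3, and 8.65 and 6.54 CPM in the same order. The chromosome 1 locus was lower in every SOM+ control library than in any bulk WT library (-1.19 ± 0.18, edgeR adjusted p = 5.83e-07), and the chromosome 2 locus higher (0.93 ± 0.25, edgeR adjusted p = 0.00131). The miR-181b windows, which overlap those of miR-181a, gave -1.21 ± 0.18 and 1.05 ± 0.27.

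**Figure D4:**
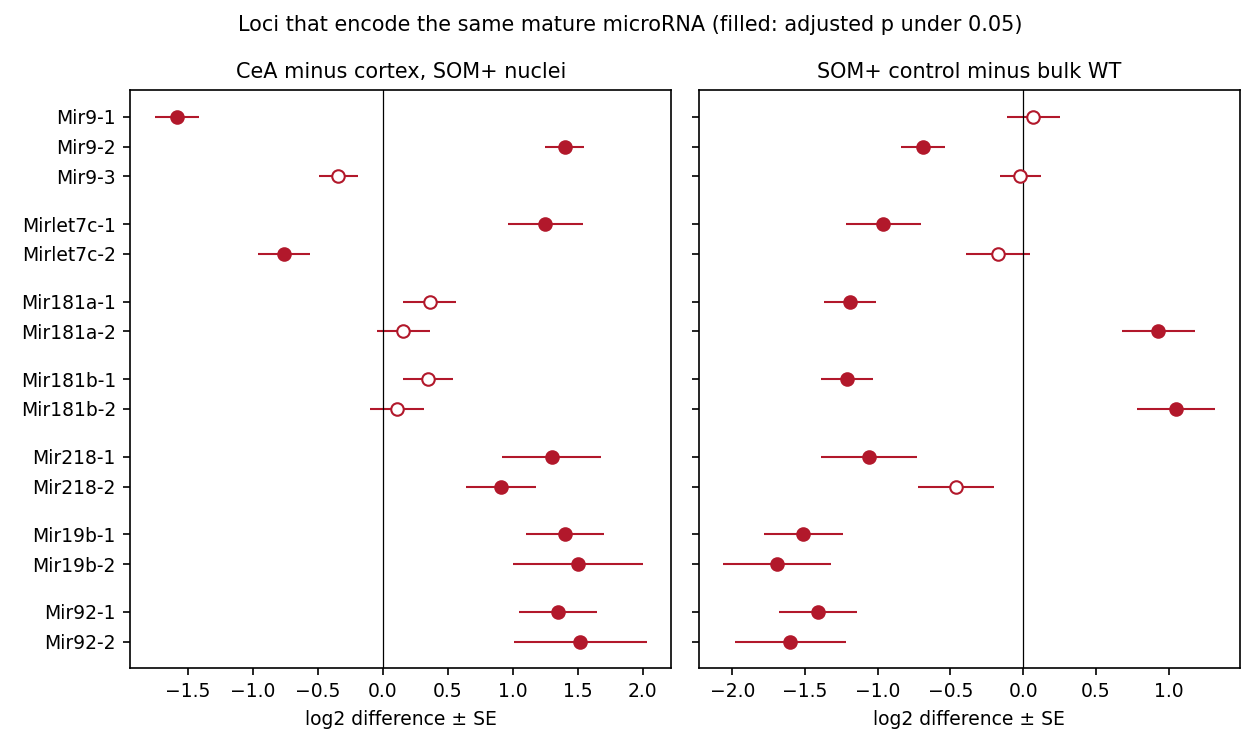
Difference (log2, with bars of 1 SE) at loci that encode the same mature microRNA, for CeA minus cortex in SOM+ nuclei and for SOM+ control minus bulk WT, filled where called. Mir9-1 and Mir9-2 stand on opposite sides of 0 in the first (-1.58 and 1.40), and Mir181a-1 and Mir181a-2 in the second (-1.19 and 0.93).

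Windows of microRNAs inside genes were also read against the start window of the host. Hosts were assigned by position in a RefSeq annotation of another build and matched to the mm9 windows by gene name. For a host with several start windows the most open was used, and distances run to that window. It need not be the start from which the microRNA is transcribed. There were 369 pairs in 346 host genes with no overlap between the windows. Across pairs, which share libraries and in part hosts, the region difference in SOM+ nuclei of the microRNA window and that of the host window had r = 0.69, and r was 0.73 for SOM+ against bulk, 0.74 for the interaction and 0.44 for the region difference in bulk. For the 106 pairs at least 50 kb apart it was 0.70, 0.72, 0.77 and 0.51. For the region difference in SOM+, 122 of the microRNA windows were called, the host was called too for 97, and 92 of these moved the same way. For SOM+ against bulk all 91 pairs with both called moved the same way, and 24 microRNA windows were called without their host. In bulk the host was called for 13 of 30, all the same way. No share or correlation was computed over pairs of windows that are not microRNA and host. These values therefore describe the pairs and cannot be read as particular to host genes.

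Htr2c, the serotonin 2C receptor gene, holds several microRNAs in its introns, and its start window was higher in CeA SOM+ than in cortex SOM+ by 2.44. Mir1912, Mir1298 and Mir448, at 46928, 102392 and 195697 bases from that start, were higher by 2.48, 1.80 and 1.97. Mir208b rose by 2.02 with Myh7 by 1.62, and Mir338 fell by 1.04 with Aatk, a kinase gene, by 1.51. Mir128-2 rose by 0.59, less than Arpp21 at 1.97. Mir218-1 rose by 1.30 while its host Slit2, an axon guidance ligand, was not called (-0.11, edgeR adjusted p = 0.655), with the windows 240787 bases apart, and the same held for Mir218-2 (0.91) in Slit3 (-0.07). Other start windows of Slit2 and Slit3, where they have any, were not compared. The call of Mir218-1 was lost with cyclic loess and without CeA SOM+ fear 2. The 5 pairs that went opposite ways were Mir6902 (1.44) in Ppp1r7 (-0.55), Mir6965 (1.06) in Ccnf (-0.74), Mir7003 (0.86) in Mybl2 (-0.43), Mir3057 (0.50) in Apba3 (-0.57) and Mir6896 (0.37) in Dst (-0.58). In SOM+ against bulk, Mir139 rose by 0.89 with Pde2a by 1.25, and Mir30c-1 by 2.59 where Nfyc rose by 0.99.

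**Figure D5:**
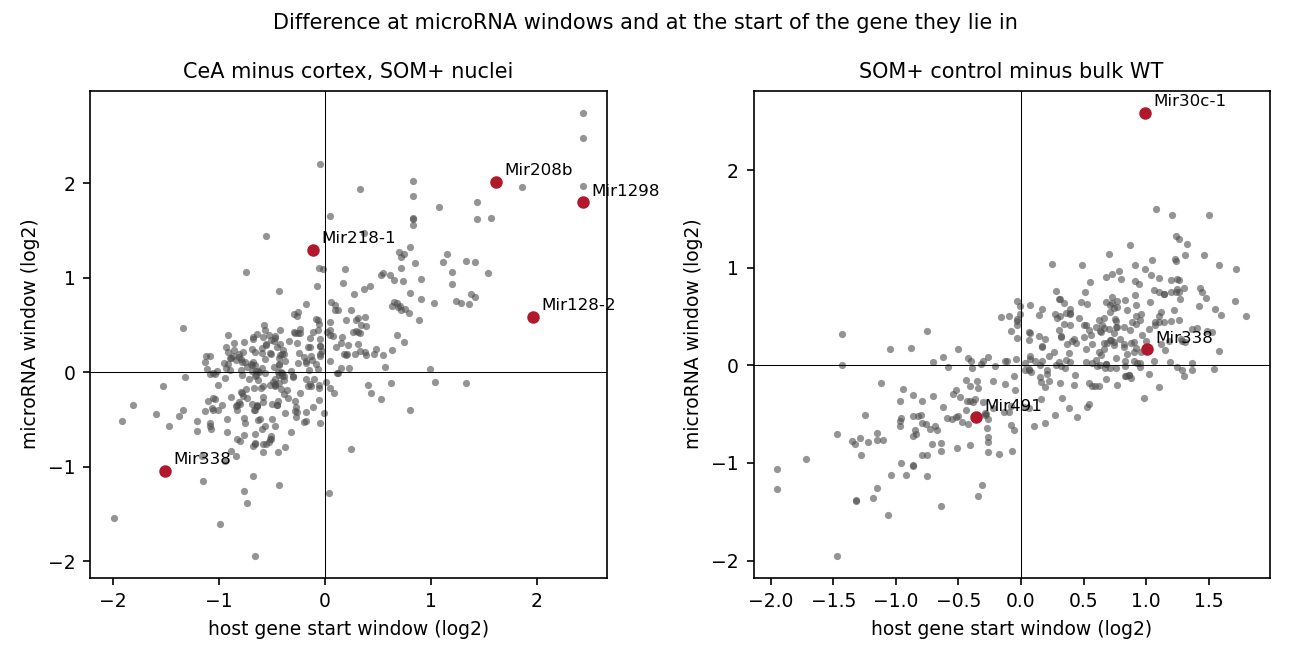
Difference of each intragenic microRNA window (vertical, log2) against that of its host gene's start window (horizontal, log2) for 369 pairs, for CeA minus cortex in SOM+ nuclei and for SOM+ control minus bulk WT. Points follow the diagonal loosely (r = 0.69 and 0.73), and Mir30c-1 lies above it at 2.59 against 0.99.

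Fear conditioning and the Erbb4 knockout, the treatments the study set out to compare, left no microRNA window past the test. For fear against control in CeA SOM+, 0 of 1121 windows were called, as were 0.0% of all windows, by edgeR, and DESeq2 and cyclic loess with limma called 0 too. Unadjusted p values under 0.05 were found by edgeR for 37 microRNA windows in CeA SOM+ (3.3%, against 2.38% of all windows), 15 in cortex (1.34%, against 1.14%), 27 averaged over regions (2.41%, against 2.11%) and 33 for the difference between the regions (2.94%, against 1.47%). DESeq2 gave 24, 8, 13 and 21, and in each comparison 0 were called, as were 0.0% of all windows. With 2 libraries per group the median standard error was 0.35 in CeA and 0.31 in cortex on the log2 scale. The smallest p in CeA was that of Mir690 (-1.70 ± 0.48, edgeR adjusted p = 1.0), followed by Mir1258 (1.35 ± 0.40) and Mir713 (0.73 ± 0.25). In cortex they were Mir6398 (-0.67 ± 0.25), Mir384 (-0.91 ± 0.35) and Mir3473a (-1.10 ± 0.44). Mir132, whose transcript neuronal activity is known to raise, read 145 and 139 CPM in CeA SOM+ control and 153 and 99.3 after fear conditioning, and 222 and 161 against 169 and 181 CPM in cortex. The groups overlapped in both regions.

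For KO against WT, 0 of 1122 windows were called in CeA bulk, in cortex bulk, averaged over the regions or as a difference between them, with 0.0% of all windows called in each, and DESeq2 and limma called 0 as well. Unadjusted p values under 0.05 were found for 34, 32, 35 and 24 windows by edgeR and for 30, 26, 30 and 25 by DESeq2. By edgeR that is 3.03%, 2.85%, 3.12% and 2.14%, where all windows had 2.96%, 3.27%, 3.46% and 2.34%. Without the 4 libraries of doubtful label 0 were called too. The median standard error was 0.43 in either region. In CeA the smallest p was that of Mir344b, at 29.6, 23.6 and 29.1 CPM in KO and 17.9 and 12.9 in WT (1.14 ± 0.31, edgeR adjusted p = 0.999). All 3 KO libraries lay above both WT libraries there, and in cortex they overlapped, at 19.5, 18.5 and 12.1 against 17.9 and 12.2 CPM. Next came Mir6343 (-1.14 ± 0.35) and Mir5107 (-1.02 ± 0.32). In cortex they were Mir7678 (2.09 ± 0.62), Mir490 (1.55 ± 0.51) and Mir3058 (-0.82 ± 0.27). Without cortex bulk KO 3, the library that stood apart from its group, 9 windows were called in cortex, among them Mir293 (2.77 ± 0.72) and Mir7678 (2.26 ± 0.61), and 1 averaged over the regions, Mir3058 (-0.92 ± 0.24, edgeR adjusted p = 0.0423). Mir294 and Mir295, of the embryonic stem cell list like Mir293, were counted singly among the 9. The share of all windows called without that library is not given here, so the 9 cannot be read as particular to microRNA windows.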

How the data were processed

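The values are raw read counts per window, 1 column per library, deposited by the authors with no normalization. The submitters' processing notes name build mm9 and, with no order, Picard 1.88, MACS2, Bowtie2, Trimmomatic 0.32 and bcl2fastq 2.16.0.10. How reads were counted, and what was done about strand, duplicates and the Tn5 offset, is not given in the sources used here, and the total over windows is not the sequencing depth. Of 26728 rows, 663 repeated a window and were dropped, and 0 columns were left unused. Tests were run in edgeR 4.0.16 under R 4.3.3 (quasi-likelihood F tests, TMM, filterByExpr by group with a minimum count of 10 and a minimum total of 15), in fits over the 8 SOM+, the 10 bulk and all 18 libraries, the last 2 with labelled sex as a term. P values were adjusted over all windows of a comparison. DESeq2 1.42.0, limma 3.58.1 with cyclic loess, library totals, other filters, sex read from Y-linked promoters leaving out each library and, added later, leaving out the 4 bulk libraries that go against their labelled sex were tried as alternatives, and the fits were tested on simulated data. Windows were named by p value, up to 6 called in each direction with no overlap between groups (or the leading 3 when fewer than 3 passed), with the 5 most open and members of the lists. In the interaction no called window was left out for overlap. Host pairs, windows set side by side for a shared mature sequence and other names were chosen after their values were seen. The members and lists were chosen with earlier results of these data known. Windows on chromosome 12 from 110690000 to 111520000 were not analysed here.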

Additional observations from a re-analysis of the deposited data

Results flagged for a closer look

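The difference between SOM+ control and bulk WT nuclei was itself different in CeA and cortex for 167 microRNA windows, by the interaction term in edgeR (adjusted p under 0.05). The differences below are CeA minus cortex, on the log2 scale, for the windows with the smallest p in each direction. Single groups can overlap in these windows, as SOM+ control and bulk WT of CeA do at Mir1983 and Mir3089. In the positive direction they were 4.32 for Mir221, 2.26 for Mir125b-2, 2.24 for Mir1983, 2.23 for Mir344b, 1.99 for Mir9-2 and 1.96 for Mir137. In the negative direction they were -2.73 for Mir7228, -2.56 for Mir7027, -2.45 for Mir1936, -2.39 for Mir762 (in the start window of Bcl7c), -2.28 for Mir7237 and -2.06 for Mir3089. Mir1983 read 48.8 and 46.1 CPM in CeA SOM+ control, 21.7 and 17.1 in cortex SOM+ control, 35.5 and 48.4 in CeA bulk WT and 66.2 and 95.6 CPM in cortex bulk WT. Cortex was thus the lower region in SOM+ nuclei and the higher in bulk. Mir3089 showed the reverse, with 28.3 and 35, 59 and 77.7, 33.2 and 26.9, and 18.2 and 12.9 CPM in the same order. Each region was measured in both sorts, while the SOM+ and bulk libraries also come from different mouse lines and preparations, which cannot be told apart from the sort.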

How the results depend on the processing

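Leaving out 1 library at a time gave 342 to 471 calls for SOM+ against bulk (431 with all), 37 to 146 within CeA (116), 337 to 507 within cortex (482), 108 to 223 for the interaction (167), 370 to 468 for the regions in SOM+ (474) and 24 to 195 for the regions in bulk (118). The knockout gave 0 to 9 calls in cortex and 0 to 1 averaged over regions, 0 in CeA and 0 for the difference between regions, and fear conditioning gave 0 throughout. Under the other settings the 6 comparisons with calls ranged over 268 to 457, 23 to 146, 333 to 491, 79 to 214, 333 to 520 and 28 to 140, and those of fear and knockout gave 0. The low end of all but the fifth came from leaving out the 4 bulk libraries that go against their labelled sex. These are counts of microRNA windows. Apart from the scalings, the share of all windows called under each setting is not given here. Scaling moved the median over all windows from -0.07 to -0.27 (library totals) or 0.05 (cyclic loess) for SOM+ against bulk and from 0.04 to 0.26 or -0.02 for the regions in SOM+. Of 72 named windows called in SOM+ against bulk, 16 were lost without some library and 24 under another setting. These were 18 and 20 of 34 within CeA, 20 and 19 of 70 within cortex, 18 and 18 of 43 for the interaction, 16 and 18 of 72 for the regions in SOM+ and 17 and 19 of 32 in bulk, and none of these called windows changed sign. Same-numbered libraries deviated together in some groups only (correlations from -0.329 to 0.406, over 0.1 in 8 of 21 and under -0.1 in 4), the labels do not say that a number is shared, and the fits with the replicate number as a block gave 433, 123, 488, 184, 485 and 114 calls and 0 for fear and knockout. Depth limits the lowest windows most: 681 of the tested windows averaged under 10 CPM.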
